A study of Mus musculus with 40 samples.

Results

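Gene expression in the mouse esophagus, larynx and trachea at E13.5 was set against expression in the same organs at E11.5, ages counted in days of embryonic development. The comparison took 12 of the study's 40 libraries, selected by the age and organ codes with which the sample names begin, and it held 6 libraries of each age, 2 for each organ. Every library came from wild-type FVB/N embryos that received no treatment, so the 2 ages differ in no allele or agent. A sample was a pool of pieces of about 1 to 3 mm from 10 animals. The larynx was taken at the level of the laryngopharynx at E11.5 and at the vocal folds at E13.5, and the trachea and esophagus were cut just posterior to it, so that age and the level of the cut cannot be told apart in the larynx. The 2 replicates of a group are separate samples, and the p-values below measure only the spread between these libraries. The test treats the 6 libraries of an age as independent. Whether organs with the same replicate number came from the same embryos is not stated. At E13.5 they varied together by number, with r from 0.28 to 0.34. An age may therefore hold fewer than 6 independent samples, and the p-values may be too small. E11.5 larynx replicate 1 was the smallest library, and replicate 2 stood apart in genes detected. The counts over all genes and over each gene list are therefore given with all 12 libraries and again without these 2, written below as without the E11.5 larynx. Genes described as changed that did not pass without them are named. The larynx pair was not alone in standing apart. In a fit that weights libraries by quality, E11.5 esophagus replicate 1 had the lowest weight (0.376), beside 0.390 and 1.17 for E11.5 larynx replicates 2 and 1.

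Between these ages the foregut finishes dividing into an airway in front and an esophagus behind. Both tubes are an endodermal epithelium wrapped in mesenchyme, from which smooth muscle, cartilage, connective tissue and vessels arise, while muscle precursors, neural crest cells and nerves enter from outside. The epithelium sends the hedgehog ligand Sonic hedgehog to the mesenchyme, where the receptor Patched1 and the Gli transcription factors read it, and Wnt, BMP, FGF, Notch and retinoic acid signals pass between the layers. At this stage the blood also turns from embryonic to adult globins, and macrophages settle in the tissues.

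The libraries held between 3286391 and 24163138 expected counts, with E11.5 larynx replicate 1 the smallest. E11.5 larynx replicate 2 was unlike the rest in the number of genes detected, which was 34550 against 19637 to 23384 elsewhere, and in olfactory receptor genes, of which 1206 were detected against 82 to 149. Replicates correlated on log2 values with r between 0.894, for the E11.5 larynx, and 0.981, for the E11.5 trachea. The share of counts from mitochondrial ribosomal RNA was 9.30 to 25.2%, and that from 7SL RNA 1.36 to 7.21%. Levels below are normalized counts, which are counts divided by a factor for library size, and fold changes are log2 values that are positive where the level was higher at E13.5, with the standard error after the ± sign.

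The labels of the organs held in part. Nkx2-1, the transcription factor that marks the tracheal side of the foregut, stood at 111.5 and 106.6 normalized counts in the E11.5 trachea and at 0 to 10.2 in the other E11.5 libraries. At E13.5 it was 24.7 and 39.7 in the trachea, 30.3 and 19.2 in the larynx, and lower in both esophagus libraries, so trachea and larynx no longer separated. Tbx4, Tbx5, Wnt2 and Foxf1 were likewise highest in the E11.5 trachea. At E13.5 Tbx5 was 1339.7 and 1630.5 in the larynx, against 697.2 and 915.7 in the trachea. Krt15, a keratin of basal epithelium, was highest among the E13.5 libraries in the esophagus, at 642 and 1189.8. In the E11.5 esophagus it was 280.4 and 321.2, below 820.1 in E11.5 larynx replicate 1. The esophagus markers Sox2, Barx1 and Isl1 did not single out the esophagus at either age. At E13.5 Sox2 was 56.2 and 70.7 there and 111.2 and 135 in the trachea. Pax9, a pharyngeal marker, differed within pairs, at 402.5 and 4.4 in the E11.5 esophagus and at 269.7 and 31.8 in the E13.5 trachea, and Hoxa5 and Hoxb5 were at 0 in E11.5 larynx replicate 1. With age as a term no gene differed between any pair of organs at an adjusted p under 0.05 in edgeR, and 1863 genes differed between trachea and esophagus, 1848 between larynx and esophagus and 2439 between larynx and trachea at an unadjusted p under 0.05.

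From E11.5 to E13.5 many heart muscle, fibrillar and elastic matrix, mesothelial, macrophage, energy metabolism and ribosomal protein genes rose. Smooth and skeletal muscle genes rose in part. Parts of the hedgehog and early growth lists fell, as did some neurogenesis factors with all 12 libraries. Without the E11.5 larynx, rises went from 16 to 5 of 17 heart muscle genes and from 61 of 77 to 33 of 76 ribosomal protein genes. With organ as a term, 8006 of 27873 genes tested (28.7%) differed between the ages in edgeR's quasi-likelihood test at a Benjamini-Hochberg adjusted p under 0.05, 3526 of them higher (12.7%) and 4480 lower (16.1%) at E13.5. The median log2 fold change of all genes was -0.29, and lists of genes are read against that median and those shares. With the E11.5 larynx left out, 4280 of 26311 genes (16.3%) passed, 1998 higher (7.59%) and 2282 lower (8.67%), with a median of -0.14. The 4054 genes that passed in both fits all kept their direction and made up 50.6% of the calls with the E11.5 larynx and 94.7% of those without it. Of the 7944 genes called with 12 libraries and measured without the E11.5 larynx, 7941 had the same sign. In 1900 genes (6.82%) every E13.5 library lay above every E11.5 library, and in 2250 (8.07%) every one lay below. The number that fell was 2934 without E13.5 larynx replicate 1 and 2861 without E13.5 larynx replicate 2, and leaving out any other single library kept both directions within 1.5 times.

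The kind of gene differed between the directions. Among 18016 protein-coding genes tested, 3422 (19%) rose and 2515 (14%) fell, with a median log2 fold change of 0.02. Among the other 9857 genes, mostly noncoding RNAs and pseudogenes, 104 (1.06%) rose and 1965 (19.9%) fell, with a median of -1.41. In the fit without the E11.5 larynx these counts were 1945 (11.1%) and 1530 (8.71%) of 17567 protein-coding genes, and 53 (0.606%) and 752 (8.6%) of 8744 others, with medians of 0.07 and -1.09. A gene could pass the filter on low counts through 2 E11.5 libraries alone, which favors falls among genes of low count. E11.5 larynx replicate 2 detected 34550 genes, the most of any library. How far the filter shaped these shares was not tested.

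Genes were grouped into 60 lists by pathway, tissue or cell type, and the lists are described below by how many members tested rose or fell and by their median log2 fold change. Counts are read beside the shares of all genes, 12.7% higher and 16.1% lower, or 7.59% and 8.67% without the E11.5 larynx. A list near those shares is not set apart from other genes.

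**Figure D1:**
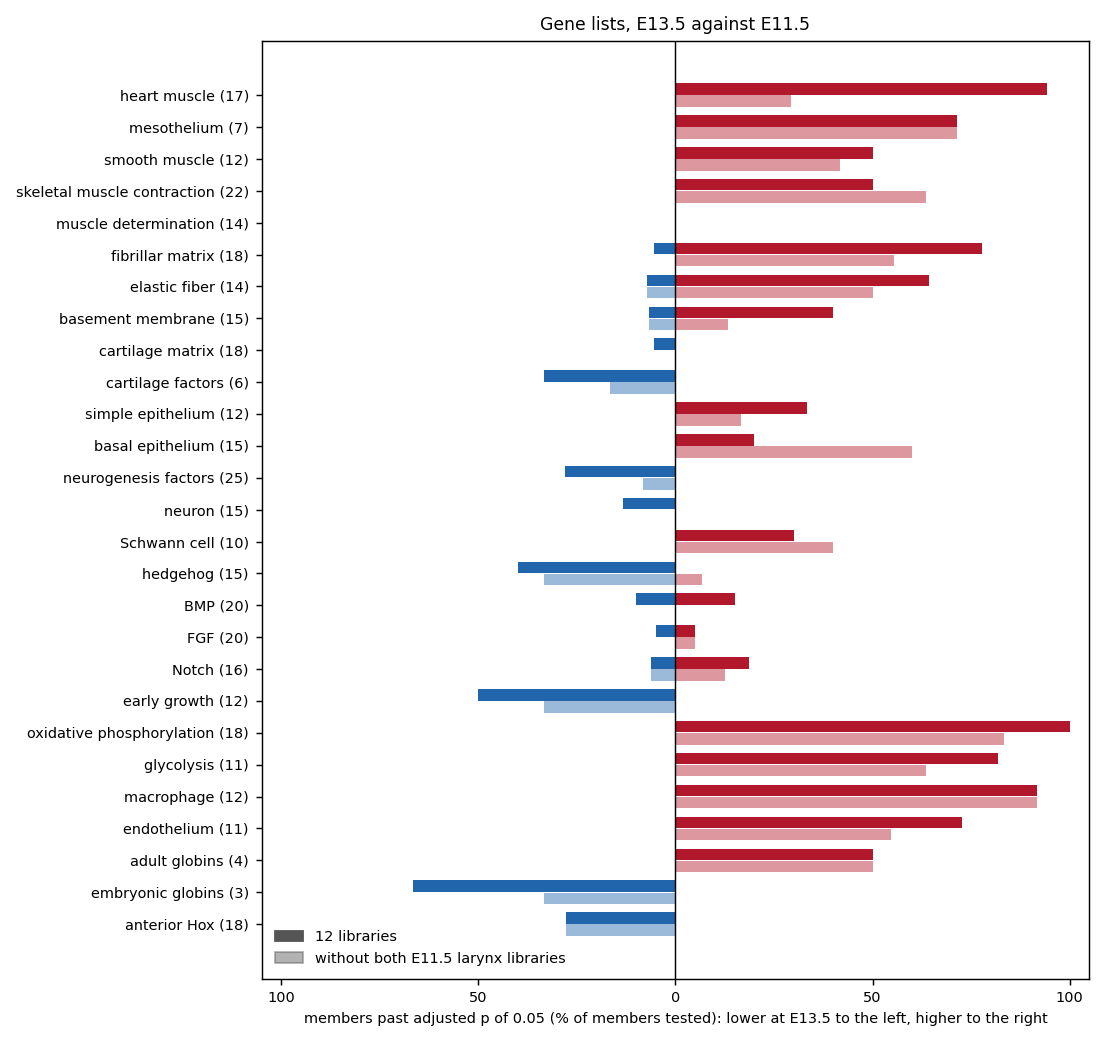
Share of the members tested, in percent, that passed an adjusted p of 0.05, higher at E13.5 to the right in red and lower to the left in blue, for 27 gene lists (number tested in brackets), with all 12 libraries in dark bars and without both E11.5 larynx libraries in pale bars. Over all genes the shares with 12 libraries were 12.7% higher and 16.1% lower; macrophage and mesothelium bars have the same length in both fits, and heart muscle and neurogenesis bars shorten without the E11.5 larynx.

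Taken organ by organ, the larynx gave the most calls. There 2052 genes rose (7.36%) and 1650 fell (5.92%), with a median log2 fold change of -0.40, and with TMM scaling 65.6% of the larynx calls were rises against 55.4% here, at a median of -0.26. In the esophagus 292 genes rose (1.05%) and 344 fell (1.23%), with a median of -0.11, and rises were 45.9% of the calls, or 55.9% with TMM scaling. In the trachea no gene passed in edgeR, 3749 had an unadjusted p under 0.05, and DESeq2 called 1208. Leaving out 1 library at a time moved these counts widely, each organ resting on 2 libraries of an age. In the larynx 657 genes passed without E13.5 replicate 2, 1800 without E13.5 replicate 1 and 1505 without E11.5 replicate 2. In the esophagus every single omission moved the count by more than 1.5 times, from 0 without E13.5 replicate 2 to 2349 without E11.5 replicate 2. In the trachea 215 passed without E11.5 esophagus replicate 1.

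**Figure D2:**
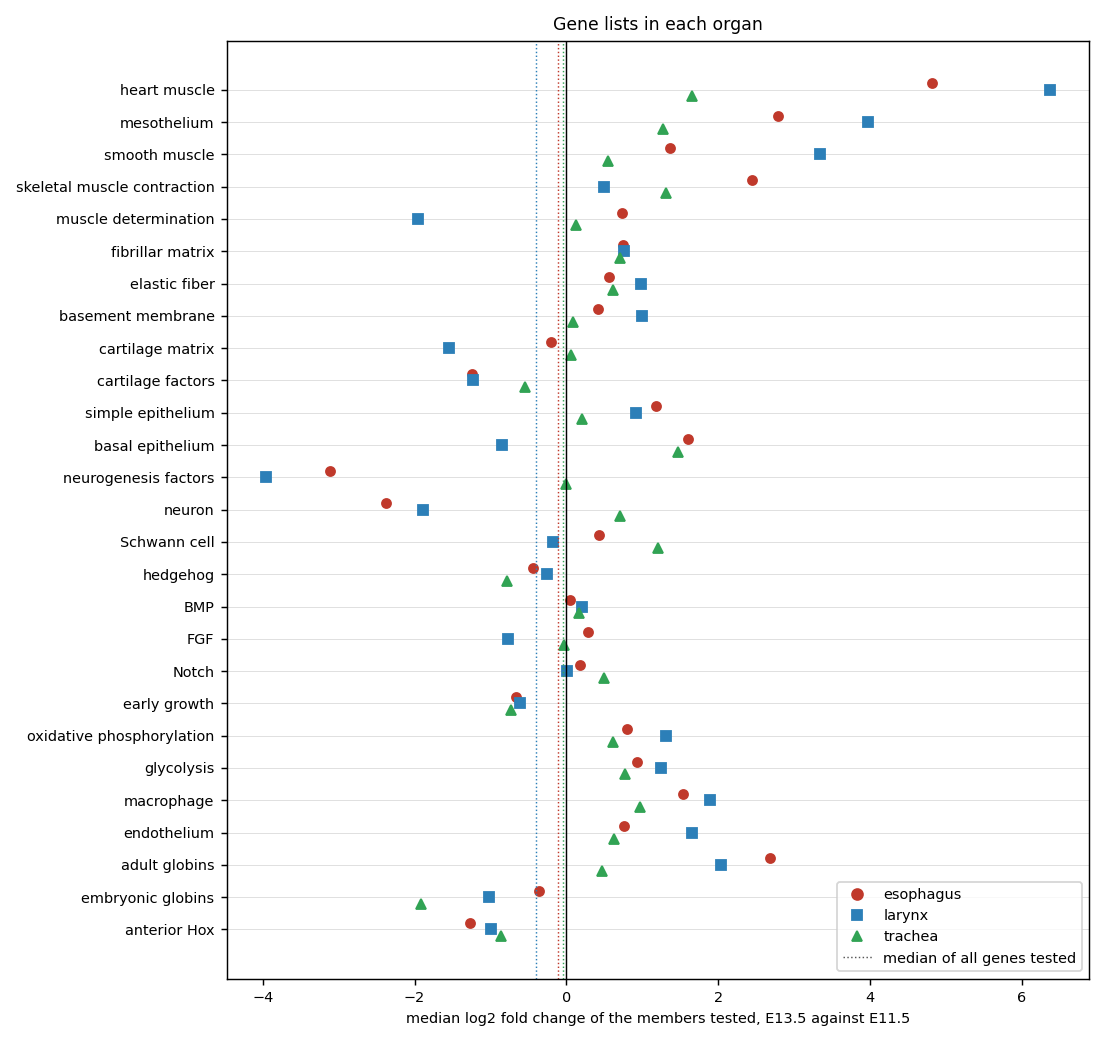
Median log2 fold change of E13.5 against E11.5 over the members tested of 27 gene lists, with esophagus as red circles, larynx as blue squares and trachea as green triangles, and dotted lines at the median of all genes in each organ. Fibrillar matrix, early growth and anterior Hox points lie close together over the organs, and heart muscle spreads from 1.66 in the trachea to 6.38 in the larynx.

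The step with age was rarely shown to differ between organs. Over all 3 organs the test called 1 gene, Gata6, which encodes a zinc-finger transcription factor of the foregut and heart (adjusted p = 0.0475, 0.00359% of genes tested), and 1620 genes had an unadjusted p under 0.05. Gata6 was at 84.1 and 62.7 normalized counts in the E11.5 larynx and 1255 and 1587 in the E13.5 larynx, against 896 and 677 and 854 and 1142 in the trachea and 279 and 469 and 702 and 659.5 in the esophagus. The larynx was thus the lowest organ at E11.5 and the highest at E13.5. Larynx against trachea, 4 genes (0.0144%) differed in their step, with 2541 at an unadjusted p under 0.05. They were Gata6 (difference in log2 fold change 3.97 ± 0.41, adjusted p = 0.0215), Thbd, which encodes the anticoagulant receptor thrombomodulin (3.16, adjusted p = 0.034), Smtnl2, a smoothelin-like gene (3.39, adjusted p = 0.034), and Prrx1, a homeobox gene of limb and facial mesenchyme (-2.79, adjusted p = 0.034). Prrx1 went from 5295 and 4189 to 937 and 607 in the larynx and from 811 and 1081 to 1174 and 953 in the trachea, and Thbd from 168 and 252 to 2121 and 1921 in the larynx and from 1658 and 1629.6 to 1667 and 1797 in the trachea. All 4 differences rest on the E11.5 larynx libraries, and the count over all 3 organs was 216 without E11.5 larynx replicate 1 and 0 without an E11.5 trachea library or any E13.5 library except trachea replicate 2. Trachea against esophagus and larynx against esophagus gave no call in edgeR, with 663 and 1906 genes at an unadjusted p under 0.05, and trachea against esophagus gave none without the E11.5 larynx, with 966. The next lowest p over the 3 organs belonged to Thbd, Prrx1, Smtnl2, Lix1 and Hif3a, with adjusted p from 0.133 to 0.149.

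Protein-coding genes that passed, averaged 50 or more normalized counts at the higher age and did not overlap between the ages were ranked by fold change, and the 10 largest rises were Ckm (5.19), Myl2 (4.48), Msln (4.18), Dpt (4.08), Cox8b (3.99), Cav3 (3.51), Ecrg4 (3.38), Sln (3.34), Upk3b (3.25) and Fxyd1 (3.20) as log2 fold changes. They held muscle genes (Ckm, the muscle creatine kinase, Myl2, the slow and ventricular myosin light chain, Cox8b, a heart and muscle subunit of cytochrome oxidase, Cav3, the muscle caveolin, and Sln, sarcolipin), mesothelial genes (Msln, mesothelin, and Upk3b, an uroplakin) and Dpt, the matrix protein dermatopontin. Ecrg4 ranged from 4.21 to 17.6 normalized counts (median 11.8) at E11.5 and from 94.7 to 168 (median 124) at E13.5, and all 6 E13.5 libraries lay above all 6 at E11.5 (log2 fold change 3.38 ± 0.32, adjusted p = 0.00017). All 10 passed as well without the E11.5 larynx, with log2 fold changes from 2.09 to 4.41.

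The 10 largest falls by the same rule were Or4x11 (-3.71), Shisa7 (-3.38), Adnp (-3.09), Lmtk3 (-3.08), Or5w19 (-2.78), Nova1 (-2.68), BC035947 (-2.65), Vmn2r90 (-2.62), Scn1a (-2.61) and Gm42669 (-2.57). Adnp encodes a homeobox protein of chromatin, Nova1 a neuronal splicing factor, Scn1a a neuronal sodium channel and Lmtk3 a kinase, while Or4x11, Or5w19 and Vmn2r90 belong to the olfactory and vomeronasal receptor families. Adnp ranged from 303 to 2592 normalized counts (median 756) at E11.5 and from 15.1 to 192 (median 113) at E13.5, with the lowest E11.5 value in E11.5 larynx replicate 1 and still no overlap (log2 fold change -3.09 ± 0.49, adjusted p = 0.00132). The receptor genes and Gm42669 peaked in E11.5 larynx replicate 2, where Gm42669 stood at 7944 against 140 to 359.9 in the other E11.5 libraries, and Shisa7, Nova1 and Scn1a peaked in E11.5 esophagus replicate 1. Without the E11.5 larynx the calls of Or4x11, Nova1 and Vmn2r90 were lost (adjusted p = 0.058 to 0.0773) and the other 7 passed. Gm42669 also lost its call without any of 7 libraries (adjusted p = 0.0535 to 0.116), and Nova1 without E11.5 larynx replicate 2 (adjusted p = 0.0549).

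The called genes with the highest counts gave a different set. Those that rose were Rn7s1 and Rn7s2, which are 7SL RNA copies that hold identical values, 7SL being the RNA of the signal recognition particle, then Eef1a1, a translation elongation factor, H19, a maternally expressed imprinted RNA, and Gm28437, with log2 fold changes of 1.13 for each 7SL copy, 0.68, 0.90 and 0.61. Those that fell were Malat1, a nuclear noncoding RNA, Vcan, the proteoglycan versican, Cbx5, the heterochromatin protein HP1 alpha, Ddx5, an RNA helicase, and Huwe1, a ubiquitin ligase, at -0.75, -0.99, -0.32, -0.41 and -0.85. Vcan ranged from 14307 to 25804 normalized counts (median 15565) at E11.5 and from 5506 to 15731 (median 7867) at E13.5 and the ages overlapped in 1 E13.5 esophagus library (log2 fold change -0.99 ± 0.17, adjusted p = 0.00166). With the E11.5 larynx left out H19, Malat1, Vcan and Huwe1 passed, and Rn7s1, Rn7s2, Eef1a1, Gm28437, Cbx5 and Ddx5 did not (adjusted p = 0.055 to 0.169). With 1 library left out at a time, the call of each 7SL copy was lost without any of 9 libraries (adjusted p = 0.0582 to 0.145), that of Malat1 without any of 9 libraries (adjusted p = 0.0512 to 0.124), that of Cbx5 without any of 10 libraries (adjusted p = 0.0502 to 0.0824), that of Gm28437 without any of 6 libraries (adjusted p = 0.0533 to 0.0639), and that of Eef1a1 without E11.5 trachea replicate 1 (adjusted p = 0.0651) or E13.5 larynx replicate 2 (adjusted p = 0.0518).

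**Figure D3:**
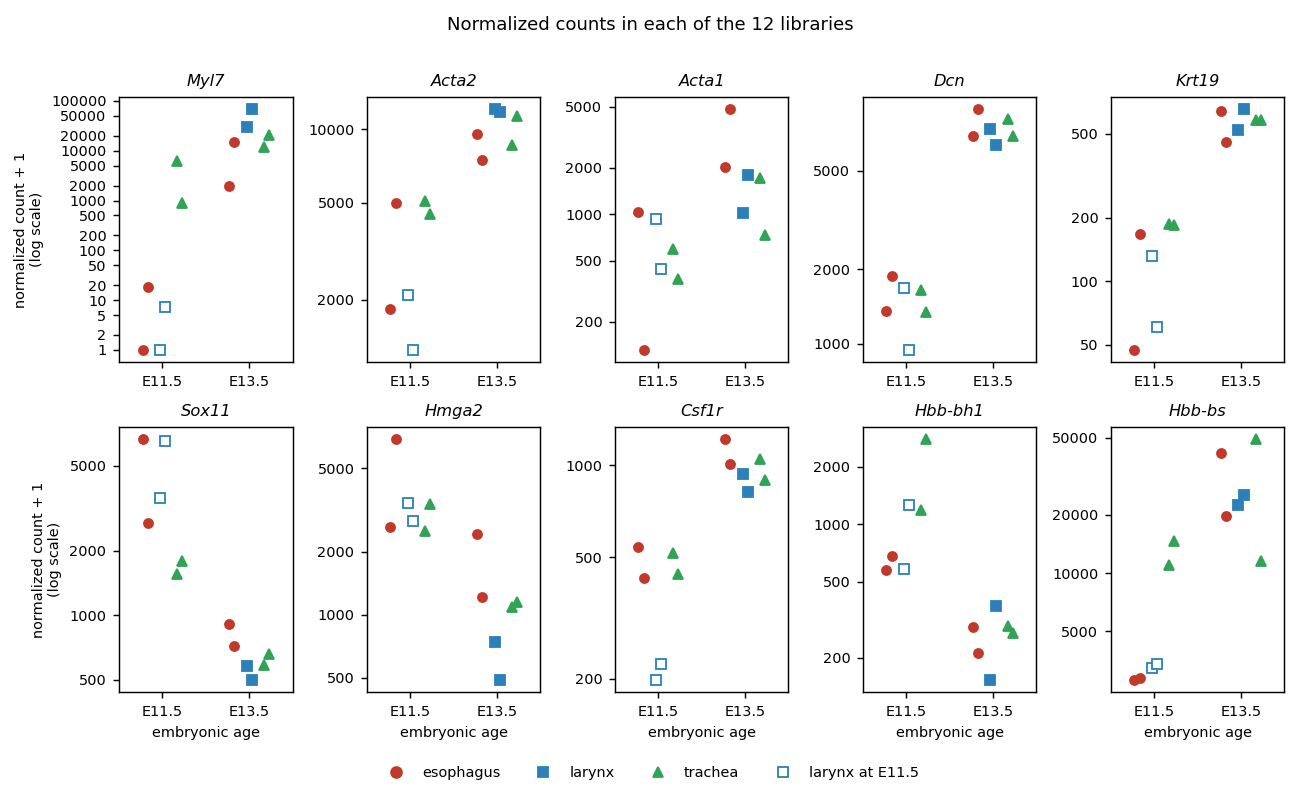
Normalized count plus 1 on a log scale for 10 genes in each of the 12 libraries, by age, with esophagus as red circles, larynx as blue squares (open at E11.5) and trachea as green triangles; each point is 1 library. Dcn, Acta2, Krt19, Sox11, Hmga2, Csf1r and Hbb-bh1 do not overlap between the ages, whereas Myl7 in the E11.5 trachea (6348 and 902) stands far above the other E11.5 libraries.

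Heart muscle genes showed the largest rise of any list of genes examined, and it was uneven over the libraries. Of the cardiomyocyte markers 16 of 17 members tested rose and the other did not pass (median log2 fold change 4.21), beside 12.7% of all genes that rose, and without the E11.5 larynx 5 rose (median 3.16), beside 7.59% of all genes. Myl7, the atrial myosin light chain (ENSMUSG00000020469, chr11:5845449-5848792 in GRCm39), stood at 0 and 16.9 in the esophagus, 0 and 6.27 in the larynx and 6348 and 902 in the trachea at E11.5, and at 1928 and 14718 in the esophagus, 30215 and 68641 in the larynx and 11707 and 20856 in the trachea at E13.5. The E11.5 esophagus and larynx were at or near 0, the E11.5 trachea overlapped the E13.5 esophagus, and the E13.5 larynx was highest (log2 fold change 8.48 ± 2.05, adjusted p = 0.0102, and 5.33, adjusted p = 0.0663 without the E11.5 larynx). Myh6, the atrial myosin heavy chain, ranged from 35.4 to 28601 normalized counts (median 78.4) at E11.5 and from 3421 to 111763 (median 37182) at E13.5 (log2 fold change 7.62 ± 2.07, adjusted p = 0.0177), and it lost its call without E11.5 esophagus replicate 1 (adjusted p = 0.059) or E11.5 larynx replicate 2 (adjusted p = 0.0506). Tnnt2, cardiac troponin T, ranged from 94.3 to 4001 normalized counts (median 240.2) at E11.5 and from 997 to 23454 (median 8627) at E13.5 (log2 fold change 4.33 ± 0.97, adjusted p = 0.0069). Both overlapped through the E11.5 trachea, where replicate 1 held 28601 of Myh6 and 4001 of Tnnt2. Myl2 (log2 fold change 4.48 ± 0.65, adjusted p = 0.000826) and Sln (log2 fold change 3.34 ± 0.50, adjusted p = 0.000929) had no overlap between the ages, at 0.925 to 40.0 (median 6.42) at E11.5 and 78.5 to 819.8 (median 216) at E13.5 for Myl2. Nppa, the atrial natriuretic peptide, was at 0 in 4 of the 6 E11.5 libraries and at 171 to 14651 at E13.5. Hcn4, the pacemaker channel, was the member that did not pass (log2 fold change 1.18 ± 0.54, adjusted p = 0.115). In bulk tissue, fewer cells of a type and less RNA per cell cannot be told apart.

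The summed heart level ranged over 942 to 52590 (median 1908) at E11.5 and 9547 to 271696 (median 88038) at E13.5 in normalized counts. E11.5 trachea replicate 1 held 52590 and replicate 2 6087, and at E13.5 the larynx libraries held 138223 and 271696 against 9547 and 86198 in the esophagus. Leaving out both E11.5 trachea libraries, a choice made after seeing the data, kept the count at 16 and put the median at 5.57, and leaving out both E11.5 larynx libraries and esophagus replicate 1 left 3 rises (median 2.72). By organ, 16 members rose in the larynx (7.36% of all genes), 6 in the esophagus (1.05%) and none in the trachea, where no gene passed at all, with medians of 6.38, 4.82 and 1.66, and the step of no member of the list was called as different between organs in edgeR, with 12 at an unadjusted p under 0.05 and 6 called by DESeq2. Myh6, Tnnt2, Nppa and Mybpc3 did not pass without the E11.5 larynx (adjusted p = 0.0522 to 0.154). The largest organ rises by the naming rule were Myl7, Myh6 and Mybpc3 in the esophagus and Nppa, Myl7 and Mybpc3, the cardiac myosin-binding protein, in the larynx, and Mybpc3 went from 0 to 2673 (median 8.20) at E11.5 and 552 to 15417 (median 4607) at E13.5.

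Mesothelial genes, which mark the lining of the body cavities and the epicardium, rose with less overlap. Of these 5 of 7 members tested rose and the rest did not pass (median log2 fold change 2.58), and without the E11.5 larynx 5 rose (median 2.03). Upk3b ranged from 21.9 to 935 normalized counts (median 264) at E11.5 and from 1306 to 5311 (median 2239) at E13.5 (log2 fold change 3.25 ± 0.75, adjusted p = 0.0081). Msln (log2 fold change 4.18 ± 0.69, adjusted p = 0.00152), Upk1b (log2 fold change 2.58 ± 0.36, adjusted p = 0.000727) and Lrrn4 (log2 fold change 2.97 ± 0.64, adjusted p = 0.00594) did not overlap between the ages either, and each of them passed whichever single library was left out. Wt1 and Aldh1a2, which mesothelium shares with other mesoderm, had log2 fold changes of 1.25 and 0.26 with adjusted p of 0.137 and 0.526. Among the E13.5 libraries the heart and mesothelial sums were both highest in larynx replicate 2 and lowest in esophagus replicate 1, and their part in the other results was not tested.

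**Figure D4:**
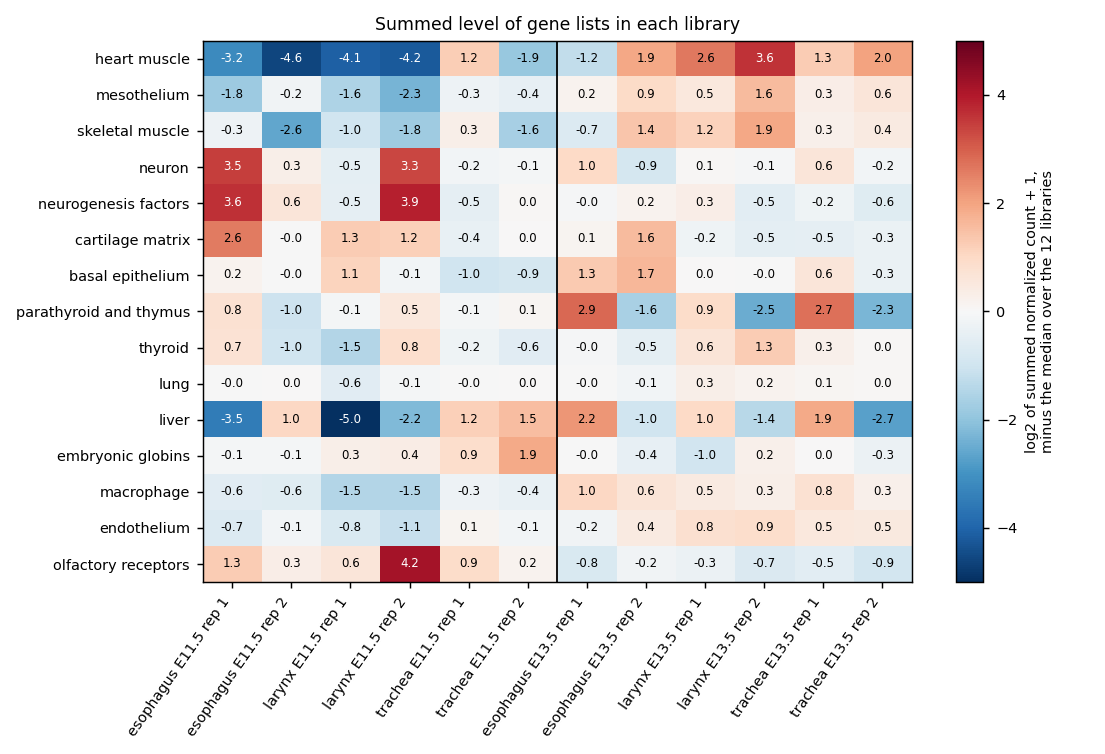
Summed normalized count of 15 gene lists in each of the 12 libraries, as log2 of the sum plus 1 minus the median of the 12 libraries (red above, blue below), E11.5 to the left of the line. Heart muscle is above its median in E11.5 trachea replicate 1 and in 5 of the 6 E13.5 libraries, the exception being esophagus replicate 1. Olfactory receptors are above their median in every E11.5 library, from 0.2 to 4.2, and highest in larynx replicate 2. Neurogenesis factors are highest in E11.5 larynx replicate 2 (3.9) and esophagus replicate 1 (3.6), and at most 0.6 elsewhere.

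Promoters of muscle genes are shown because 3 lists of contractile genes rose together. The RefSeq promoter table (GRCm38.p6, 250 bases before to 50 after each gene's start, matched by symbol) was searched on both strands for the CArG box, the site of serum response factor, which 535 of 32851 promoters (1.63%) held. It was present in 2 of 18 heart promoters (11.1%, for 16 genes matched), in 2 of 20 skeletal muscle promoters (10%, for 18 genes) and in none of 8 smooth muscle promoters of 8 genes. The 4 with a match are printed 5′ to 3′ as the 250 bases before the start, with the CArG box in capitals, and all 4 genes passed the age test with 12 libraries. Myl3 and Myl7 did not pass without the E11.5 larynx (adjusted p = 0.0663 to 0.106). These are matches of letters within this window and not mapped binding sites.
Acta1 (chr8:123894776-123895025, minus strand): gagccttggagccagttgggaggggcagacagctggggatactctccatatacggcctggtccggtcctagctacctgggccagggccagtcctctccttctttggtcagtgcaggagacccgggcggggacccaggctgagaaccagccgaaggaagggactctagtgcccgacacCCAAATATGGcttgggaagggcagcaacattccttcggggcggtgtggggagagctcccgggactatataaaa
Actc1 (chr2:114052876-114053125, minus strand): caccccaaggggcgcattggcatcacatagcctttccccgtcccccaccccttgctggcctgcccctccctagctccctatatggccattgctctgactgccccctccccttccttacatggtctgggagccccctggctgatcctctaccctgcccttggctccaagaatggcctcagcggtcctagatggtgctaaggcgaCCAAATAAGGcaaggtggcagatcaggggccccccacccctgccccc
Myl3 (chr9:110763428-110763677, plus strand): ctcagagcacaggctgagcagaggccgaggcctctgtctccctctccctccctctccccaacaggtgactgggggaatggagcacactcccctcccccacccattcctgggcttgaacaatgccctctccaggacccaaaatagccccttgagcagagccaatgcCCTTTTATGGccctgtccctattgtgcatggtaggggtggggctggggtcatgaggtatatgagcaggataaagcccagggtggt
Myl7 (chr11:5898783-5899032, minus strand): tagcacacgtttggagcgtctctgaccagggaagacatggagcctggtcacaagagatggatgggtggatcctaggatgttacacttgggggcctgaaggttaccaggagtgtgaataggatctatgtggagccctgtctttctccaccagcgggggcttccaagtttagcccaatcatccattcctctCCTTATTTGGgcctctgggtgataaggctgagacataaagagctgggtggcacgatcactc

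Genes of skeletal muscle contraction rose in part, without the factors that determine the muscle lineage. Of the contractile genes 11 of 22 members tested rose and the rest did not pass (median log2 fold change 1.28), and without the E11.5 larynx 14 rose (median 1.90). Acta1, skeletal alpha-actin, stood at 1040 and 130.4 in the esophagus, 929 and 437 in the larynx and 597 and 379.6 in the trachea at E11.5 and at 2018 and 4831 in the esophagus, 1013 and 1802 in the larynx and 1733 and 729 in the trachea at E13.5. The ages overlapped through E11.5 esophagus replicate 1, and the E13.5 esophagus was highest (log2 fold change 1.65 ± 0.48, adjusted p = 0.0249, lost without E13.5 larynx replicate 2, adjusted p = 0.0543 or E13.5 trachea replicate 1, adjusted p = 0.057). Myl1, a fast myosin light chain, ranged from 86.9 to 513 normalized counts (median 357) at E11.5 and from 632 to 2739 (median 1243) at E13.5 with no overlap (log2 fold change 2.17 ± 0.42, adjusted p = 0.00325). Several of the members that rose are also heart genes, among them Actc1 (3.00), Tnnc1 (3.28), Tnni1 (3.41), Myl4 (4.38) and Myh7 (2.57), and each of them was highest in E13.5 larynx replicate 2. Of members used by skeletal muscle alone, Tnnt3 (fast troponin T) and Tnni2 (fast troponin I) rose by 1.89 and 1.54, with Tnnt3 lost without E11.5 esophagus replicate 1 (adjusted p = 0.0866), E11.5 trachea replicate 1 (adjusted p = 0.0597), E11.5 trachea replicate 2 (adjusted p = 0.055) or E13.5 trachea replicate 1 (adjusted p = 0.093) and Tnni2 without any of 9 libraries (adjusted p = 0.0559 to 0.126). Myh3, the embryonic myosin heavy chain, nebulin (Neb), Ryr1 and the acetylcholine receptor subunit Chrna1 had log2 fold changes of 0.52, -0.15, -0.86 and 0.05 and did not pass (adjusted p = 0.144 to 0.952).

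No muscle determination factor passed over the organs in edgeR (14 tested, median log2 fold change -0.19, 1 higher and 1 lower at an unadjusted p under 0.05, 1 and 1 with DESeq2). Myod1 ranged from 37.9 to 234 normalized counts (median 107) at E11.5 and from 22.5 to 327 (median 78.8) at E13.5 (log2 fold change -0.37 ± 0.56, adjusted p = 0.64), and Myog stood at 247 to 1022 (median 450.4) at E11.5 and 149.8 to 1546 (median 355) at E13.5. Myog was highest in E13.5 esophagus replicate 2, at 1546, and lowest in E13.5 larynx replicate 1, at 149.8. Pax3, a factor of muscle precursors and neural crest, had a log2 fold change of -2.87 with an adjusted p of 0.0685, and was at 399.5 and 265 in the E11.5 larynx against 2.16 and 4.04 in the E13.5 larynx. In the larynx taken alone Pax3 fell (log2 fold change -6.73, adjusted p = 0.00801) and Tcf21, a factor of mesenchyme and pharyngeal muscle, rose (log2 fold change 4.79, adjusted p = 0.0155). In the fit without the E11.5 larynx no member passed and the median of the list was 0.47, and leaving out single libraries gave at most 1 rise and 3 falls.

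Smooth muscle genes rose in part. Of these 6 of 12 members tested rose and the rest did not pass (median log2 fold change 1.70), and without the E11.5 larynx 5 rose (median 0.88). Acta2, smooth muscle alpha-actin, ranged from 1246 to 5103 normalized counts (median 3304) at E11.5 and from 7493 to 12118 (median 10445) at E13.5 (log2 fold change 1.72 ± 0.33, adjusted p = 0.00306). Tagln, the actin-binding protein transgelin, stood at 172 to 1087 (median 549.9) at E11.5 and 1275 to 2595 (median 2345) at E13.5 (log2 fold change 2.07 ± 0.43, adjusted p = 0.00466), and Cnn1, calponin, at 8.41 to 644 (median 217) at E11.5 and 821 to 2551 (median 1428) at E13.5 (log2 fold change 2.80 ± 0.79, adjusted p = 0.0211). None of these 3 overlapped between the ages, and the lowest E11.5 values were in the larynx and in esophagus replicate 1. Des (desmin) rose from a median of 454 to 2433 normalized counts, Hspb1, a small heat shock protein of muscle, rose by 2.48 on the log2 scale, and Lmod1 by 1.26, which was lost without E11.5 larynx replicate 1 (adjusted p = 0.057), E11.5 larynx replicate 2 (adjusted p = 0.0626), E13.5 esophagus replicate 1 (adjusted p = 0.074) or E13.5 larynx replicate 1 (adjusted p = 0.068). Without the E11.5 larynx Acta2, Tagln and Cnn1 rose by 1.18 (adjusted p = 0.015), 1.46 (adjusted p = 0.0294) and 1.65 (adjusted p = 0.0349). Myh11, Actg2 and Myocd, the smooth muscle myosin, gamma-actin and coactivator, had log2 fold changes of 1.69, 1.71 and 1.36 and did not pass (adjusted p = 0.0863 to 0.151). By organ, 10 members rose in the larynx (median 3.35), 2 in the esophagus (median 1.37) and none in the trachea (median 0.54), beside 7.36% and 1.05% of all genes and none, and the step of no member of the list was called as different between organs in edgeR, with 9 at an unadjusted p under 0.05 and 2 called by DESeq2. Lmod1 did not pass without the E11.5 larynx (adjusted p = 0.165).

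Fibrillar matrix genes of connective tissue gave some of the most uniform rises over the 3 organs. Of the fibrillar matrix genes 14 of 18 members tested rose and 1 fell (median log2 fold change 0.81), and without the E11.5 larynx 10 rose (median 0.73). Dcn, the small proteoglycan decorin (ENSMUSG00000019929, chr10:97315275-97358155), ranged from 943 to 1875 normalized counts (median 1499.5) at E11.5 and from 6343 to 8875 (median 7127) at E13.5. All 6 E13.5 libraries lay far above all 6 at E11.5 (log2 fold change 2.33 ± 0.16, adjusted p = 7.95e-05, and 2.30, adjusted p = 0.000326 without the E11.5 larynx), and by organ the log2 fold change was 2.28 in the esophagus, 2.39 in the larynx and 2.32 in the trachea. Sparc, a collagen-binding glycoprotein, stood at 4191 to 8259.7 (median 6293) at E11.5 and 16550 to 20971 (median 17724) at E13.5 (log2 fold change 1.60 ± 0.18, adjusted p = 0.000363), and Col3a1, the chain of type III collagen, at 14399.7 to 30922 (median 28506) at E11.5 and 48124 to 65479 (median 62012) at E13.5 (log2 fold change 1.16 ± 0.19, adjusted p = 0.00143). Neither overlapped between the ages. Postn (periostin), Lum (lumican), Ogn (osteoglycin), Col5a2, Col6a2 and Col1a1 rose by 1.39, 1.11, 1.17, 0.66, 0.78 and 0.94, and Col1a1 did not pass without the E11.5 larynx (0.59, adjusted p = 0.0847). The fall was Col12a1 (log2 fold change -0.65 ± 0.20, adjusted p = 0.0275), which was lost without any of 5 libraries (adjusted p = 0.0515 to 0.0661). Col12a1 did not pass without the E11.5 larynx (adjusted p = 0.187).

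Elastic fiber genes followed. Of these 9 of 14 members tested rose and 1 fell (median log2 fold change 0.71), and without the E11.5 larynx 7 rose and 1 fell (median 0.59). Loxl1, a cross-linking lysyl oxidase, ranged from 125 to 459 normalized counts (median 342) at E11.5 and from 629 to 1371 (median 945) at E13.5 with no overlap (log2 fold change 1.66 ± 0.30, adjusted p = 0.00236). Mfap5, a microfibril protein, rose from a median of 25.7 to 117, also without overlap (log2 fold change 2.23 ± 0.27, adjusted p = 0.000406). Eln (elastin) and Fbln5 (fibulin 5) rose by 2.25 and 1.43 with 12 libraries but not past the threshold without the E11.5 larynx (1.42, adjusted p = 0.0752 and 0.90, adjusted p = 0.0749). Eln was spread widely at E13.5, from 1745 in esophagus replicate 2 to 13266 in trachea replicate 1. The fall was Fbn2, the fetal fibrillin (log2 fold change -0.42 ± 0.15, adjusted p = 0.0489), lost without any of 9 libraries (adjusted p = 0.0548 to 0.133) and kept without the E11.5 larynx (-0.60, adjusted p = 0.0321).

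Basement membrane genes rose in part and 1 fell, beside 12.7% of all genes that rose and 16.1% that fell with 12 libraries. Of these 6 of 15 members tested rose and 1 fell (median log2 fold change 0.46), and without the E11.5 larynx 2 rose and 1 fell (median 0.14). Lama1, the early laminin alpha chain, ranged from 546 to 1181 normalized counts (median 669) at E11.5 and from 173 to 349 (median 198) at E13.5 with no overlap (log2 fold change -1.74 ± 0.13, adjusted p = 0.00011). Nid2 (nidogen 2) stood at 1136 to 2423 (median 1958) at E11.5 and 2932 to 4505 (median 3967) at E13.5, also without overlap (log2 fold change 1.03 ± 0.18, adjusted p = 0.00225), and Lama4, a vascular laminin chain, rose by 1.01. Col18a1 rose by 0.83 with 12 libraries and not past the threshold without the E11.5 larynx (0.46, adjusted p = 0.119).

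Some cartilage and bone genes fell, and E11.5 esophagus replicate 1 held the highest summed level of cartilage genes. Of the cartilage transcription factors 2 of 6 members tested fell and the rest did not pass (median log2 fold change -0.92), beside 16.1% of all genes that fell, against 4 falls without E11.5 esophagus replicate 2, and without the E11.5 larynx 1 fell (median -0.96). Sox9, the master factor of cartilage, stood at 1701 and 398 in the esophagus, 416 and 818 in the larynx and 358 and 467 in the trachea at E11.5 and at 386 and 235 in the esophagus, 259 and 171 in the larynx and 214 and 265 in the trachea at E13.5. E11.5 esophagus replicate 1 was the highest, and the ages overlapped through the E11.5 trachea (log2 fold change -1.36 ± 0.33, adjusted p = 0.0103, and -1.28, adjusted p = 0.0529 without the E11.5 larynx). Its partner Sox5 stood at 219.5 to 724 (median 286) at E11.5 and 118 to 185 (median 152) at E13.5 without overlap (log2 fold change -1.23 ± 0.28, adjusted p = 0.00786, and -1.39, adjusted p = 0.0239 without the E11.5 larynx). Of the cartilage matrix genes 1 of 18 members tested fell and the rest did not pass (median log2 fold change -0.33), beside 16.1% of all genes that fell and 0 to 3 falls with single libraries left out; the fall was Col2a1, type II collagen (log2 fold change -1.68 ± 0.52, adjusted p = 0.0299), at 12314 in E11.5 esophagus replicate 1 and 999 in replicate 2. Col2a1 was lost without E11.5 esophagus replicate 1 (adjusted p = 0.145), E13.5 esophagus replicate 1 (adjusted p = 0.0533), E13.5 larynx replicate 1 (adjusted p = 0.073) or E13.5 larynx replicate 2 (adjusted p = 0.0734) and without the E11.5 larynx (-1.37, adjusted p = 0.163). Of the bone and hypertrophy genes 1 of 9 members tested rose and 3 fell (median log2 fold change -1.41), and without the E11.5 larynx no member passed (median -0.74). With the E11.5 larynx and esophagus replicate 1 left out, 1 cartilage matrix gene rose and none fell, with a median of 0.38. Runx2, the bone factor, fell by 2.41 (adjusted p = 0.012, lost without E11.5 esophagus replicate 1, adjusted p = 0.0573) and Sp7 by 2.23 (lost without any of 5 libraries, adjusted p = 0.0527 to 0.123). The number that fell was 0 without E11.5 esophagus replicate 1 and 1 without E13.5 esophagus replicate 1, E13.5 larynx replicate 1 or E13.5 larynx replicate 2. Of tendon and fibroblast genes 1 of 12 members tested rose and 3 fell (median log2 fold change -0.51), with 0 to 2 rises and 1 to 5 falls with single libraries left out, and without the E11.5 larynx 1 fell (median -0.09), and Pdgfra, a receptor of mesenchyme, fell with overlap at 5283 to 11118 (median 8166) at E11.5 and 2842 to 6382 (median 4658) at E13.5 (log2 fold change -0.76 ± 0.16, adjusted p = 0.0057).

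Epithelial genes rose in part, and the basal keratins Krt5, Krt14 and Krt15 passed without the E11.5 larynx and not with it. Of the simple epithelium genes 4 of 12 members tested rose and the rest did not pass (median log2 fold change 0.63), with 2 without E13.5 esophagus replicate 1, and without the E11.5 larynx 2 rose (median 0.64). Krt19, a keratin of simple and ductal epithelium and of mesothelium, ranged from 46.3 to 187 normalized counts (median 148) at E11.5 and from 455 to 655 (median 581) at E13.5. It did not overlap between the ages (log2 fold change 2.21 ± 0.30, adjusted p = 0.000658), and Krt7 stood at 79.6 to 431 (median 145) at E11.5 and 464 to 795 (median 482) at E13.5 without overlap (log2 fold change 1.60 ± 0.31, adjusted p = 0.0035). Krt8 and Krt18, their common partners, rose by 1.81 and 1.55 with overlap, from E13.5 esophagus replicate 2 at 309 of Krt8 to replicate 1 at 2818, and did not pass without the E11.5 larynx (adjusted p = 0.0955 and 0.0846). Krt8 was also lost without E13.5 esophagus replicate 1 (adjusted p = 0.0682) and Krt18 without E13.5 esophagus replicate 1 (adjusted p = 0.0636) or E13.5 trachea replicate 1 (adjusted p = 0.0508). The general epithelial genes Epcam and Cdh1 had log2 fold changes of 0.69 and 0.40 and did not pass (adjusted p = 0.134 and 0.152).

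Of the basal epithelium genes 3 of 15 members tested rose and the rest did not pass (median log2 fold change 0.80), and without the E11.5 larynx 9 rose (median 1.78). Perp, a desmosome protein, rose in both at 88.7 to 391 (median 154) at E11.5 and 539.9 to 1244 (median 714) at E13.5 without overlap (log2 fold change 2.16 ± 0.27, adjusted p = 0.000434). Sfn (stratifin) and Krt17 rose by 1.87 and 2.08, with Sfn lost without any of 6 libraries (adjusted p = 0.0536 to 0.073) and Krt17 without E11.5 esophagus replicate 1 (adjusted p = 0.0519), E11.5 trachea replicate 1 (adjusted p = 0.0553), E13.5 esophagus replicate 1 (adjusted p = 0.0537) or E13.5 trachea replicate 1 (adjusted p = 0.0644). Krt5, the main basal keratin, stood at 328 and 335 in the esophagus, 648 and 293 in the larynx and 68.7 and 64.6 in the trachea at E11.5 and at 1417 and 1043 in the esophagus, 272 and 196 in the larynx and 710.3 and 71.5 in the trachea at E13.5. Its E11.5 larynx values lay above the E13.5 larynx, while the esophagus was higher at E13.5 (log2 fold change 1.24 ± 0.65, adjusted p = 0.164, and 2.21, adjusted p = 0.0172 without the E11.5 larynx). Trp63, the factor of stratified epithelium, Krt14 and Krt15 likewise passed only without the E11.5 larynx, at 1.27 (adjusted p = 0.044) for Trp63, 2.34 (adjusted p = 0.0099) for Krt14 and 1.78 (adjusted p = 0.0145) for Krt15, against 0.31, 1.09 and 0.66 with it. The number of basal genes that rose was 1 without E11.5 esophagus replicate 1, E11.5 trachea replicate 1 or E13.5 esophagus replicate 1 and 6 without E11.5 larynx replicate 1.

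Of the suprabasal genes 2 of 10 members tested rose and the rest did not pass (median log2 fold change 0.96), with 1 to 2 rises with single libraries left out, and without the E11.5 larynx 3 rose of 9 tested (median 1.31). The rises were the esophageal keratins Krt4 and Krt13. Krt4 was at 70.8 and 116 in the E13.5 esophagus, 14.4 and 6.06 in the larynx and up to 19.2 in the trachea, and at most 8.41 at E11.5 (log2 fold change 4.01 ± 0.74, adjusted p = 0.0028). Krt13 was at 21.5 and 39.4 in the E13.5 esophagus and at most 5.04 in any other library, and lost its call without any of 5 libraries (adjusted p = 0.0571 to 0.0867). Of the airway secretory genes 3 of 8 members tested rose and the rest did not pass (median log2 fold change 1.35), and without the E11.5 larynx 4 rose (median 2.25). Scgb3a2, a secretoglobin of the airway, reached 102 and 37.4 in the E13.5 larynx and 98.8 and 84.7 in the trachea, against 12.3 and 0 in the esophagus and at most 5.61 at E11.5 (log2 fold change 3.95 ± 0.83, adjusted p = 0.00518). Of the ciliary genes 2 of 14 members tested rose and 2 fell (median log2 fold change -0.53) (0 to 2 rises and 1 to 3 falls with single libraries left out), and without the E11.5 larynx 1 fell (median 0.12). Foxj1, the factor of motile cilia, stood at 4.21 to 67.4 (median 13.9) at E11.5 and 4.04 to 23.9 (median 5.89) at E13.5 and did not pass (adjusted p = 0.253), and Ccdc39 fell without overlap (log2 fold change -1.42 ± 0.30, adjusted p = 0.0057).

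Transcription factors that pattern the foregut moved little as a group. Of these 2 of 25 members tested rose and 5 fell (median log2 fold change -0.18), with 1 to 3 rises and 2 to 4 falls with single libraries left out, and without the E11.5 larynx 1 rose and 2 fell (median -0.22). Foxp2, a forkhead repressor of the airway, ranged from 1026 to 2461 normalized counts (median 1856) at E11.5 and from 499 to 1224 (median 894) at E13.5 (log2 fold change -1.09 ± 0.20, adjusted p = 0.00234), with overlap through E11.5 larynx replicate 1 alone, and Klf5 rose by 0.82 (adjusted p = 0.0113). Both passed without the E11.5 larynx and whichever 1 library was left out. Irx1 fell by 1.31 with 12 libraries and each single omission, and not past the threshold without the E11.5 larynx (-1.15, adjusted p = 0.063). The calls of Gata6 (1.59), Irx2 (-1.29), Tbx1 (-0.98) and Foxp1 (-0.28) were each lost when single libraries were left out, without any of 9 libraries (adjusted p = 0.0507 to 0.0914) for Gata6, any of 8 libraries (adjusted p = 0.0558 to 0.0935) for Irx2, any of 7 libraries (adjusted p = 0.0504 to 0.0881) for Tbx1 and any of 10 libraries (adjusted p = 0.059 to 0.105) for Foxp1. Gata6, Irx2, Tbx1 and Foxp1 did not pass without the E11.5 larynx (adjusted p = 0.0508 to 0.215). Sox2, Nkx2-1 and Barx1, which divide the foregut into esophagus, airway and stomach, had log2 fold changes of -0.02, -0.07 and -1.39 and did not pass (adjusted p = 0.147 to 0.981).

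Some neurogenesis genes fell with 12 libraries, and 2 E11.5 libraries held the highest levels. Of the neurogenesis factors 7 of 25 members tested fell and the rest did not pass (median log2 fold change -2.87), and without the E11.5 larynx 2 fell of 24 tested (median -1.66). Of all genes 16.1% fell with 12 libraries and 8.67% without the E11.5 larynx. In the latter fit the share of these factors that fell was no higher than that of all genes. Of the neurogenesis genes that the study tabulated from a module of these and the other samples, so that their direction is not independent evidence, 12 of 32 members tested fell and the rest did not pass (median log2 fold change -2.59), and without the E11.5 larynx 4 fell of 31 tested (median -1.64). Of the neuron genes 2 of 15 members tested fell and the rest did not pass (median log2 fold change -1.38), beside 16.1% of all genes that fell and 0 to 3 falls with single libraries left out, and without the E11.5 larynx no member passed (median -0.75). With E11.5 esophagus replicate 1 left out as well, which was chosen after seeing the data, 2 genes of the study's list fell and the medians of the 3 lists were 0.36, 0.18 and 0.18. Dcx, doublecortin of young neurons, was at 9318 and 296 in the esophagus, 328 and 5912 in the larynx and 759 and 712 in the trachea at E11.5, and at 145 to 447 (median 278) at E13.5. Esophagus replicate 1 and larynx replicate 2 stood apart, and the other 4 E11.5 libraries overlapped or neared the E13.5 libraries (log2 fold change -3.07 ± 0.86, adjusted p = 0.0202, and -2.51, adjusted p = 0.0692 without the E11.5 larynx). Lhx1, a LIM homeobox factor of interneurons, was at 439.5 and 251 in those same libraries and at most 23.6 in any other. The number of neurogenesis factors that fell was 2 without E11.5 esophagus replicate 1 or E11.5 larynx replicate 2, 4 without E13.5 esophagus replicate 2 or E13.5 larynx replicate 2 and 3 without E13.5 larynx replicate 1, and for the study's list it was 4 without E11.5 esophagus replicate 1 or E11.5 larynx replicate 2 and 7 without E13.5 esophagus replicate 2 or E13.5 larynx replicate 1. Map2 did not pass without the E11.5 larynx (adjusted p = 0.155). Dcx was lost without any of 5 libraries (adjusted p = 0.0512 to 0.105) and Map2 (-2.56) without any of 7 libraries (adjusted p = 0.0533 to 0.141).

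No neurogenesis factor of the 25 tested and no neuron gene of the 15 lay lower at E13.5 in every library, and 2 of the 32 of the study's list did, Sox11 and Fzd3, beside 8.07% of all genes. Sox11, an early neural and mesenchymal factor (ENSMUSG00000063632, chr12:27384263-27392573), ranged from 1556 to 6649 normalized counts (median 3112) at E11.5 and from 499 to 913 (median 622) at E13.5. Every E13.5 library lay below every E11.5 library, including the trachea, where it went from 1556 and 1801 to 585 and 659 (log2 fold change -2.40 ± 0.31, adjusted p = 0.000552, and -1.98, adjusted p = 0.00398 without the E11.5 larynx). Fzd3, a Frizzled receptor that guides axons, stood at 1962 to 5022 (median 2481) at E11.5 and 1212 to 1636 (median 1499) at E13.5, also without overlap (log2 fold change -1.04 ± 0.23, adjusted p = 0.00621). Of the Schwann cell genes 3 of 10 members tested rose and the rest did not pass (median log2 fold change 0.53), and without the E11.5 larynx 4 rose (median 0.78). Pmp22 and Mbp, proteins of myelin, rose by 0.86 and 0.97, while Sox10, the glial factor, had -0.43 and did not pass (adjusted p = 0.302). Of enteric neural crest genes 1 of 11 members tested rose and 1 fell (median log2 fold change -0.04), and without the E11.5 larynx 1 rose (median 0.06). Ednrb, the endothelin receptor that crest cells need to colonize the gut, rose without overlap at 669 to 1665 (median 1283) at E11.5 and 1844 to 3216 (median 2643) at E13.5 (log2 fold change 1.01 ± 0.18, adjusted p = 0.00223), Tfap2b fell by 2.42 (-1.63, adjusted p = 0.0614 without the E11.5 larynx), and the receptor Ret had a log2 fold change of -0.23 and did not pass (adjusted p = 0.637).

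Hedgehog pathway genes fell in part, at the level of the receptor Ptch1, of regulators and of some targets. The ligand, Smoothened and the targets Hhip and Foxf1 did not pass. Of the hedgehog genes 6 of 15 members tested fell and the rest did not pass (median log2 fold change -0.57), and without the E11.5 larynx 1 rose and 5 fell (median -0.74). Ptch1, the receptor for the ligand and itself a target (ENSMUSG00000021466, chr13:63656142-63721412), ranged from 1829 to 2820.4 normalized counts (median 2483) at E11.5 and from 692 to 1419.8 (median 1007) at E13.5. The ages did not overlap (log2 fold change -1.22 ± 0.13, adjusted p = 0.00031, and -1.24, adjusted p = 0.00313 without the E11.5 larynx), and it was lower at E13.5 in each organ, with -1.18 in the esophagus, -1.20 in the larynx and -1.28 in the trachea. Gli1, the target most used as a readout, stood at 262 to 507 (median 476) at E11.5 and 87.8 to 206 (median 161) at E13.5 (log2 fold change -1.44 ± 0.21, adjusted p = 0.000891). Gli2, the main activator, stood at 586 to 925 (median 691) at E11.5 and 329 to 514 (median 369) at E13.5 (log2 fold change -0.91 ± 0.12, adjusted p = 0.000658), and Gli3, the main repressor, at 1796 to 2417 (median 2236) at E11.5 and 694 to 1212 (median 1014) at E13.5 (log2 fold change -1.15 ± 0.10, adjusted p = 0.00011). None of the 3 Gli genes overlapped between the ages, nor did Sufu, which holds the Gli proteins in the cytoplasm and stood at 379 to 589 (median 472) at E11.5 and 245 to 366 (median 307) at E13.5 (log2 fold change -0.64 ± 0.13, adjusted p = 0.004). Without the E11.5 larynx these 4 had log2 fold changes of -1.41 (adjusted p = 0.00651), -0.84 (adjusted p = 0.00349), -1.06 (adjusted p = 0.0015) and -0.76 (adjusted p = 0.00909). Shh, the ligand, stood at 25.2 to 121 (median 63.8) at E11.5 and 7.07 to 103 (median 42.0) at E13.5 and did not pass (log2 fold change -0.57 ± 0.45, adjusted p = 0.346), nor did Smo, the signal transducer, at 2243 to 3519.9 (median 2943) at E11.5 and 2541 to 3165 (median 3016) at E13.5 (log2 fold change 0.05 ± 0.12, adjusted p = 0.793), or the antagonist and target Hhip (log2 fold change 0.03 ± 0.32, adjusted p = 0.952). Of the co-receptors, Gas1, Cdon and Boc had log2 fold changes of 0.34, 0.32 and -0.16 with 12 libraries, and Gas1 rose without the E11.5 larynx (0.49, adjusted p = 0.0351). Foxf1, a target in foregut mesenchyme, had -0.50 and did not pass (adjusted p = 0.332). By organ the list median was -0.43 in the esophagus, -0.25 in the larynx and -0.79 in the trachea, beside -0.11, -0.40 and -0.04 over all genes.

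**Figure D5:**
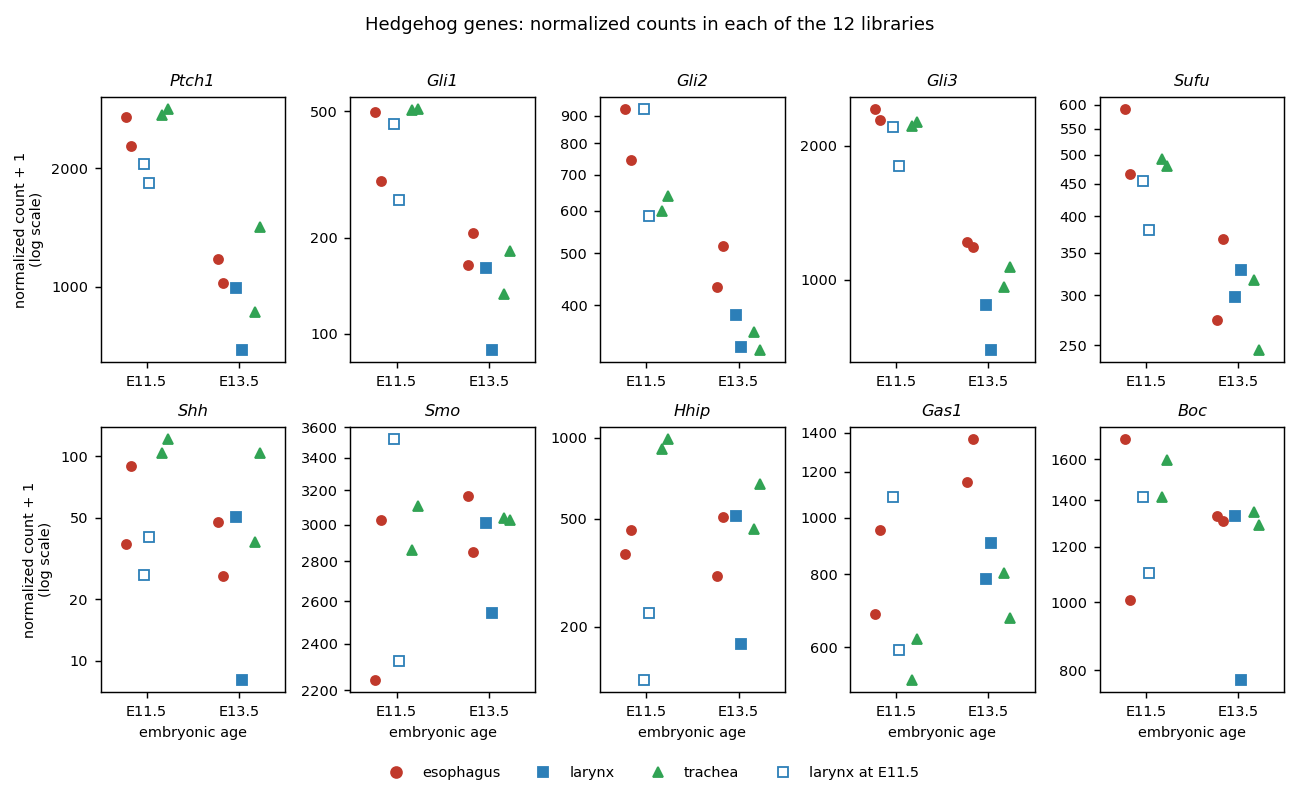
Normalized count plus 1 on a log scale for 10 hedgehog genes in each of the 12 libraries, by age, with esophagus as red circles, larynx as blue squares (open at E11.5) and trachea as green triangles; each point is 1 library and each panel has its own scale. Ptch1, Gli1, Gli2, Gli3 and Sufu do not overlap between the ages, and Shh, Smo and Hhip do.

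Single Wnt genes passed in both directions, beside 12.7% of all genes that rose and 16.1% that fell. The ligand shares with 12 libraries lay below these. Of the ligands 2 of 18 members tested rose and 1 fell (median log2 fold change 0.18), of the modulators 3 of 10 members tested rose and 1 fell (median log2 fold change 0.55), and of the canonical targets 3 of 10 members tested fell and the rest did not pass (median log2 fold change -0.53). With the E11.5 larynx left out, for the ligands 2 rose and 1 fell (median 0.49), for the modulators 4 rose (median 0.57) and for the targets 1 fell (median -0.27). Of all genes 7.59% rose and 8.67% fell in that fit. Wnt5a, a noncanonical ligand of mesenchyme, ranged from 612 to 2195 normalized counts (median 1473) at E11.5 and from 512 to 773 (median 677) at E13.5 and overlapped through the E11.5 trachea (log2 fold change -1.04 ± 0.17, adjusted p = 0.00164). Its relative Wnt5b was higher at E13.5 without overlap, at 127 to 159.8 (median 143) at E11.5 and 202 to 426 (median 254) at E13.5 (log2 fold change 0.92 ± 0.17, adjusted p = 0.00255). Wnt2b rose by 0.90 and was lost without any of 7 libraries (adjusted p = 0.0512 to 0.092). Wnt2b did not pass without the E11.5 larynx (adjusted p = 0.265). Axin2, a feedback target of canonical signaling, stood at 475 to 1106 (median 686) at E11.5 and 346 to 431 (median 365) at E13.5 without overlap (log2 fold change -0.94 ± 0.19, adjusted p = 0.00402, and -0.70, adjusted p = 0.0331 without the E11.5 larynx), and Lef1 fell by 1.28 (-0.79, adjusted p = 0.0919 without the E11.5 larynx). Among the secreted modulators Sfrp5 (2.06), Dkk3 (2.18) and Sfrp2 (0.61) rose, each also without the E11.5 larynx, and the inhibitor Dkk1 fell at 12.6 to 139 (median 75.9) at E11.5 and 3.97 to 21.7 (median 10.1) at E13.5 (log2 fold change -2.23 ± 0.54, adjusted p = 0.0102, and -1.38, adjusted p = 0.063 without the E11.5 larynx). The number of ligands that rose was 1 without E11.5 esophagus replicate 1, E11.5 larynx replicate 1, E13.5 esophagus replicate 1, E13.5 esophagus replicate 2 or E13.5 larynx replicate 2.

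The shares of BMP and FGF genes that passed lay near or below those of all genes, 12.7% higher and 16.1% lower. Of the BMP pathway genes 3 of 20 members tested rose and 2 fell (median log2 fold change 0.04), and without the E11.5 larynx no member passed (median -0.09). Bmp7 ranged from 341 to 581 normalized counts (median 388) at E11.5 and from 420.1 to 1589 (median 927) at E13.5 (log2 fold change 1.02 ± 0.24, adjusted p = 0.00957), with the E13.5 larynx highest. Bmp6 and the target Id3 rose by 0.78 and 0.49, and the antagonist Grem1 and the target Msx2 fell by 1.61 and 1.72; Bmp6 was lost without E13.5 esophagus replicate 2 (adjusted p = 0.0511) or E13.5 larynx replicate 2 (adjusted p = 0.0578), Id3 without any of 7 libraries (adjusted p = 0.0517 to 0.0721), Grem1 without E13.5 larynx replicate 1 (adjusted p = 0.068) and Msx2 without any of 9 libraries (adjusted p = 0.0535 to 0.113). Of the FGF genes 1 of 20 members tested rose and 1 fell (median log2 fold change -0.24), and without the E11.5 larynx 1 rose (median 0.05). Fgf2 rose by 0.77 and Fgf9 fell by 0.91, the latter lost without E13.5 larynx replicate 2 (adjusted p = 0.0543), and Fgf10, the ligand of the lung bud mesenchyme, had -0.61 (adjusted p = 0.0614). The number of FGF genes that rose was 3 without E11.5 larynx replicate 1, and the number that fell was 2 without E11.5 esophagus replicate 2 or E13.5 trachea replicate 1, 3 without E13.5 esophagus replicate 1 and 0 without E13.5 larynx replicate 2.

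Of the Notch genes 3 of 16 members tested rose and 1 fell (median log2 fold change 0.18), and without the E11.5 larynx 2 rose and 1 fell (median 0.21). Of all genes 12.7% rose and 16.1% fell with 12 libraries, and 7.59% and 8.67% without the E11.5 larynx. Hey1, a target, stood at 287 to 352 (median 326) at E11.5 and 434 to 762 (median 622) at E13.5 without overlap (log2 fold change 0.93 ± 0.13, adjusted p = 0.000781), Notch2, a receptor, fell by 0.56 (adjusted p = 0.00427), and the ligand Jag1 rose by 0.54 and was lost without any of 8 libraries (adjusted p = 0.0775 to 0.101). Jag1 did not pass without the E11.5 larynx (adjusted p = 0.324). Hes1, another target, had 0.25 and did not pass (adjusted p = 0.186). The number that rose was 1 without E11.5 esophagus replicate 1, E11.5 larynx replicate 2, E11.5 trachea replicate 2, E13.5 larynx replicate 1 or E13.5 trachea replicate 1. Of the retinoic acid genes 2 of 14 members tested rose and 2 fell (median log2 fold change 0.04), and without the E11.5 larynx 1 rose and 2 fell (median 0.09). With 12 libraries these counts lay near the shares of all genes. Cyp26b1, which degrades retinoic acid, ranged from 190 to 949.7 normalized counts (median 605) at E11.5 and from 97.9 to 164 (median 140.4) at E13.5, and Stra6, the receptor that imports retinol, went from a median of 262 to 81.5. Neither overlapped (log2 fold change -1.82 ± 0.38, adjusted p = 0.00479 for Cyp26b1 and -1.63 ± 0.20, adjusted p = 0.000435 for Stra6). The retinal reductase Dhrs3 rose by 0.80 and did not pass without the E11.5 larynx (0.44, adjusted p = 0.0794).

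Genes of early embryonic growth fell in part, and imprinted growth genes split. Of the early growth list 6 of 12 members tested fell and the rest did not pass (median log2 fold change -0.62), with 3 without E11.5 esophagus replicate 2, and without the E11.5 larynx 4 fell (median -0.66). Hmga2, a chromatin protein of growing embryonic tissue and a target of the microRNA let-7, ranged from 2500.5 to 6909 normalized counts (median 3088) at E11.5 and from 488 to 2426 (median 1123) at E13.5 (log2 fold change -1.70 ± 0.27, adjusted p = 0.00134). The ages did not overlap, and E13.5 esophagus replicate 1, at 2426, came nearest to the E11.5 libraries. Igf2bp1, an RNA-binding protein, stood at 2789.7 to 3589 (median 3375) at E11.5 and 1646 to 2068 (median 1757) at E13.5 without overlap (log2 fold change -0.85 ± 0.09, adjusted p = 0.000347, and -0.89, adjusted p = 0.00252 without the E11.5 larynx). Lin28b, which blocks let-7, and Trim71, a let-7 target, fell by 1.17 and 1.56 with overlap, and were lost without E11.5 larynx replicate 2 (adjusted p = 0.0547) or E13.5 larynx replicate 2 (adjusted p = 0.0615) and without E11.5 esophagus replicate 2 (adjusted p = 0.0745) or E13.5 trachea replicate 2 (adjusted p = 0.0505). Lin28b did not pass without the E11.5 larynx (adjusted p = 0.133). Of the imprinted and insulin-like growth genes 4 of 12 members tested rose and 2 fell (median log2 fold change 0.41), and without the E11.5 larynx 4 rose and 2 fell (median 0.41). H19 stood at 46848 to 89042 (median 68124) at E11.5 and 110238 to 152546 (median 119154) at E13.5 without overlap (log2 fold change 0.90 ± 0.20, adjusted p = 0.00619), and its neighbor Igf2 rose by 0.79 with 12 libraries (0.50, adjusted p = 0.117 without the E11.5 larynx). Meg3 and Peg10 fell by 1.97 and 1.05, both also without the E11.5 larynx.

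Genes of the cell cycle changed little. Of the S phase genes 1 of 17 members tested rose and the rest did not pass (median log2 fold change 0.03), of the mitosis genes 2 of 16 members tested fell and the rest did not pass (median log2 fold change -0.00049), and of the inhibitors of cyclin-dependent kinases 3 of 10 members tested rose and the rest did not pass (median log2 fold change 0.31). The inhibitors gave 1 to 3 rises with single libraries left out, and the mitosis genes 1 to 3 falls with single libraries left out. In the fit without the E11.5 larynx, for the S phase genes no member passed (median 0.02), for the mitosis genes 1 fell (median -0.00092) and for the inhibitors 2 rose (median 0.42). Mki67, the proliferation marker, fell by 0.45 and was lost without any of 8 libraries (adjusted p = 0.0501 to 0.0784), and Cenpe, a mitotic kinesin, fell by 0.56 whichever library was left out. Mki67 and Ccne2 did not pass without the E11.5 larynx (adjusted p = 0.079 to 0.0804). Cdkn2c, the inhibitor p18, ranged from 32.4 to 84.1 normalized counts (median 58.6) at E11.5 and from 109 to 183 (median 117) at E13.5 without overlap (log2 fold change 1.20 ± 0.19, adjusted p = 0.00141). The rise among the S phase genes, Ccne2 (0.43), was lost without E11.5 trachea replicate 1 (adjusted p = 0.0547), E13.5 esophagus replicate 1 (adjusted p = 0.0531), E13.5 larynx replicate 1 (adjusted p = 0.0601) or E13.5 trachea replicate 2 (adjusted p = 0.0585).

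Genes of energy metabolism and translation rose broadly. Of the oxidative phosphorylation genes encoded in the nucleus all 18 members tested rose (median log2 fold change 0.92), and without the E11.5 larynx 15 rose (median 0.69). Cox5a, a subunit of cytochrome oxidase, stood at 416 to 720.1 (median 549) at E11.5 and 876 to 2152 (median 1089) at E13.5 (log2 fold change 1.07 ± 0.18, adjusted p = 0.00172) and Atp5f1b, the beta subunit of ATP synthase, at 7947 to 13731 (median 11631) at E11.5 and 16182 to 34621 (median 20374) at E13.5 (log2 fold change 0.95 ± 0.18, adjusted p = 0.00271), both without overlap and highest in the E13.5 larynx. Of the glycolysis and hypoxia genes 9 of 11 members tested rose and the rest did not pass (median log2 fold change 0.85), and without the E11.5 larynx 7 rose (median 0.89). Aldoa, the aldolase of muscle and embryo, ranged from 3324 to 5759.7 normalized counts (median 4584) at E11.5 and from 10293 to 22145 (median 11357) at E13.5 without overlap (log2 fold change 1.52 ± 0.18, adjusted p = 0.000423). Pgk1, Ldha and Pdk1 rose by 1.11, 1.12 and 1.13, each without overlap and each also without the E11.5 larynx. Of the ribosomal protein genes 61 of 77 members tested rose and the rest did not pass (median log2 fold change 0.55), and without the E11.5 larynx 33 rose of 76 tested (median 0.55). Their summed level was 272418 to 490095 (median 420759) at E11.5 and 506671 to 676805 (median 604092) at E13.5, with no overlap, and Rpl41 rose by 0.83 (adjusted p = 0.00361). By organ no ribosomal protein gene passed, with medians of 0.71 in the esophagus, 0.52 in the larynx and 0.40 in the trachea. Oxidative phosphorylation genes gave 17 rises in the larynx, and glycolysis and hypoxia genes 6 there and 3 in the esophagus. The esophagus gave no oxidative phosphorylation call, and the trachea no call at all. Of all genes 7.36% rose in the larynx and 1.05% in the esophagus. Of the mitochondrially encoded mRNAs 3 of 13 members tested rose and 1 fell (median log2 fold change 0.10), with 0 to 3 falls with single libraries left out, and without the E11.5 larynx 1 rose and 2 fell (median 0.12).

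The globins showed the turn from embryonic to adult forms. Of the embryonic globins 2 of 3 members tested fell and the other did not pass (median log2 fold change -1.09), and without the E11.5 larynx 1 fell (median -1.14); of the adult globins 2 of 4 members tested rose and the rest did not pass (median log2 fold change 1.67), and without the E11.5 larynx 2 rose (median 1.57). Hbb-bh1, an embryonic beta-like globin, ranged from 576 to 2789 normalized counts (median 931) at E11.5 and from 153 to 374 (median 279.6) at E13.5 without overlap (log2 fold change -1.99 ± 0.33, adjusted p = 0.00158), and Hba-x, the embryonic alpha-like globin, fell by 1.09 without overlap. Hba-x did not pass without the E11.5 larynx (adjusted p = 0.0622). Hbb-bs, an adult beta globin, stood at 2806 and 2864 in the esophagus, 3229.8 and 3377 in the larynx and 11064 and 14620.1 in the trachea at E11.5 and at 41726 and 19745 in the esophagus, 22408 and 25452 in the larynx and 49342 and 11527 in the trachea at E13.5. The E11.5 trachea was the highest organ at that age and overlapped E13.5 trachea replicate 2 (log2 fold change 2.53 ± 0.43, adjusted p = 0.00176, and 2.34, adjusted p = 0.0194 without the E11.5 larynx). Hbb-bt rose alike by 2.41, and RSEM divides reads between near-identical globins, so the split between the copies is uncertain. Hba-a1 and Hba-a2 had log2 fold changes of 0.94 and 0.92 and did not pass (adjusted p = 0.0881 and 0.0541), and all 4 adult globins passed without trachea replicate 2 of either age. Of the other red cell genes 2 of 14 members tested rose and 1 fell (median log2 fold change 0.85), the number of rises being between 0 and 9 when single libraries were left out, 11 of which moved it by more than 1.5 times, and without the E11.5 larynx 1 fell (median 1.02). Bcl11a, a repressor of embryonic globins that is also a neural gene, fell without overlap at 653 to 1805 (median 1035) at E11.5 and 284 to 389 (median 314) at E13.5 (log2 fold change -1.66 ± 0.19, adjusted p = 0.000378).

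Macrophage genes rose over the organs. Of these 11 of 12 members tested rose and the other did not pass (median log2 fold change 1.44), and without the E11.5 larynx 11 rose (median 1.25). Csf1r, the receptor for the macrophage growth factor, ranged from 198 to 539 normalized counts (median 433) at E11.5 and from 818 to 1216 (median 970.3) at E13.5 (log2 fold change 1.41 ± 0.16, adjusted p = 0.000378). Lyz2, a lysozyme, stood at 69.0 to 136 (median 121) at E11.5 and 263 to 526 (median 319.7) at E13.5 (log2 fold change 1.79 ± 0.18, adjusted p = 0.000199) and C1qa, a chain of complement C1q, at 70.5 to 154 (median 119.7) at E11.5 and 250.1 to 537 (median 332) at E13.5 (log2 fold change 1.72 ± 0.20, adjusted p = 0.000397). The E13.5 libraries lay above all E11.5 libraries in 10 of 12 members, beside 6.82% of all genes, the exceptions being Fcgr1 (1.29) and Ptprc, the pan-leukocyte antigen CD45, which did not pass (log2 fold change 1.09 ± 0.39, adjusted p = 0.0559). All 11 rises held whichever single library was left out, and by organ 10 members rose in the esophagus, 11 in the larynx and none in the trachea, with medians of 1.54 in the esophagus, 1.90 in the larynx and 0.97 in the trachea. Of the endothelial genes 8 of 11 members tested rose and the rest did not pass (median log2 fold change 1.07), and without the E11.5 larynx 6 rose (median 0.70). Pecam1 (CD31) stood at 771 to 1637 (median 1196) at E11.5 and 1756 to 2956 (median 2542) at E13.5 without overlap (log2 fold change 1.07 ± 0.18, adjusted p = 0.00173), Tek, the angiopoietin receptor, rose by 1.76, and Kdr, the main VEGF receptor, had 0.43 and did not pass (adjusted p = 0.129). Of the pericyte genes 2 of 6 members tested rose and the rest did not pass (median log2 fold change 0.57), and without the E11.5 larynx 2 rose (median 0.13); the rises were the potassium channel subunits Kcnj8 (1.36) and Abcc9 (1.88).

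Hox genes of the anterior paralog groups fell in part. Of these 5 of 18 members tested fell and the rest did not pass (median log2 fold change -1.07), and without the E11.5 larynx 5 fell (median -0.97). Hoxa2, the factor of the second pharyngeal arch and hindbrain, ranged from 234 to 524 normalized counts (median 358) at E11.5 and from 98.9 to 208 (median 180.4) at E13.5 without overlap (log2 fold change -1.08 ± 0.19, adjusted p = 0.00219, and -0.93, adjusted p = 0.0175 without the E11.5 larynx). Hoxd4 fell by 1.89 whichever library was left out, Hoxb6 by 1.94 (lost without E11.5 esophagus replicate 1, adjusted p = 0.0606 or E11.5 larynx replicate 2, adjusted p = 0.0641), Hoxd3 by 2.10 (lost without E11.5 larynx replicate 2, adjusted p = 0.0518) and Hoxb3 by 1.16 (lost without any of 9 libraries, adjusted p = 0.0505 to 0.0993). The number that fell was 3 without E11.5 esophagus replicate 1, 8 without E11.5 esophagus replicate 2, 10 without E11.5 larynx replicate 1 and 2 without E11.5 larynx replicate 2, and it was 2 without both E11.5 larynx libraries and esophagus replicate 1. Hoxd3 did not pass without the E11.5 larynx (adjusted p = 0.0557). Of the posterior groups 1 of 15 members tested rose and 1 fell (median log2 fold change -0.30), with 0 to 3 rises and 0 to 2 falls with single libraries left out, and without the E11.5 larynx 2 rose and 1 fell of 14 tested (median 0.06).

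Lists for neighboring tissues and for RNA quality were measured beside these results. No liver, parathyroid and thymus, lung or notochord marker passed in edgeR with 12 libraries. For liver these were 16 tested, median log2 fold change 1.54, 1 higher and 0 lower at an unadjusted p under 0.05, 1 and 0 with DESeq2. For parathyroid and thymus they were 9 tested, median log2 fold change 1.63, 1 higher and 0 lower at an unadjusted p under 0.05, 0 and 0 with DESeq2. For lung they were 8 tested, median log2 fold change -0.28, 1 higher and 0 lower at an unadjusted p under 0.05, 1 and 0 with DESeq2. For notochord they were 5 tested, median log2 fold change -0.57, 2 higher and 0 lower at an unadjusted p under 0.05, 1 and 0 with DESeq2. Without the E11.5 larynx no member passed (median 0.69) for liver, 1 rose (median 2.58) for parathyroid and thymus, no member passed of 7 tested (median -0.13) for lung and 1 rose of 4 tested (median -0.02) for notochord. The liver sum ranged over 319.6 to 29913 (median 11553) at E11.5 and 1546 to 47361 (median 12764) at E13.5, and that of parathyroid and thymus over 133 to 468 (median 273) at E11.5 and 47.5 to 1979.6 (median 304) at E13.5, where Foxn1, the thymus factor, was at 185 and 136 in replicate 1 of the E13.5 esophagus and trachea and at 4.82 and 0 in replicate 2. At E13.5 the liver sum was 47361, 20404 and 38333 in replicate 1 of the esophagus, larynx and trachea and 5124, 3951 and 1546 in replicate 2, and the parathyroid and thymus sum was likewise higher in replicate 1 of each organ. Of the thyroid genes 2 of 8 members tested rose and the rest did not pass (median log2 fold change -0.33), and without the E11.5 larynx no member passed of 7 tested (median 1.17), with a summed level of 54.7 to 276 (median 118) at E11.5 and 110.1 to 378 (median 172) at E13.5. Of the somite and sclerotome genes 1 of 7 members tested rose and 1 fell (median log2 fold change -0.18), with 0 to 2 falls with single libraries left out, and without the E11.5 larynx 1 rose (median -0.34). Olfactory receptor genes, which these organs are not known to use, gave 79 falls among 244 tested (median -2.30) and 31 of 187 without the E11.5 larynx (median -1.33). Their sum was 73373 in E11.5 larynx replicate 2 and 4634 to 73373 (median 6923) at E11.5 and 2157 to 3544 (median 2639) at E13.5, so the ages did not overlap, and the number of falls was 45 without E11.5 esophagus replicate 1, 46 without E11.5 larynx replicate 2, 47 without E11.5 trachea replicate 1, 28 without E13.5 larynx replicate 1 and 29 without E13.5 larynx replicate 2. Only 244 of 1416 olfactory receptor genes passed the filter on low counts. They could do so through 2 E11.5 libraries alone, which favors falls. Of the immediate early genes 2 of 10 members tested rose and the rest did not pass (median log2 fold change 0.92), with between 1 and 6 when single libraries were left out, 11 of which moved it by more than 1.5 times, and without the E11.5 larynx 1 rose (median 0.47), and of the abundant noncoding RNAs 3 of 5 members tested rose and the rest did not pass (median log2 fold change 1.13), with 1 to 3 rises with single libraries left out, and without the E11.5 larynx no member passed (median 1.03). Replication-dependent histone genes, mitochondrial ribosomal RNAs and sex-linked genes gave no call in edgeR. For histones these were 64 tested, median log2 fold change 0.15, 1 higher and 0 lower at an unadjusted p under 0.05, 1 and 1 with DESeq2. For the ribosomal RNAs they were 2 tested, median log2 fold change 0.16, 0 higher and 0 lower at an unadjusted p under 0.05, 1 and 0 with DESeq2. For sex-linked genes they were 5 tested, median log2 fold change -0.71, 0 higher and 2 lower at an unadjusted p under 0.05, 0 and 2 with DESeq2. In the fit without the E11.5 larynx no member passed (median 0.00) for histones, no member passed (median -0.31) for the ribosomal RNAs and no member passed (median -0.95) for sex-linked genes. The part of these levels in the results above was not tested.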

How the data were processed

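RNA-seq was measured in 12 libraries prepared with poly-A selection from total RNA of pooled tissue. Per the labels and the study's methods, the authors aligned the paired reads to GRCm39 with Bowtie2 (version 2.4.2) run by RSEM (version 1.3.3) and deposited each gene's expected count, not normalized, in which a read that matches several genes is divided between them. No source used here gives the annotation or the strand setting, and counts of paralogs, overlapping genes and antisense genes are therefore uncertain. Gene identifiers were paired with symbols from GENCODE vM39 (52610 of 53647 matched).

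The deposited counts were rounded to whole numbers. A gene was kept if 2 or more libraries reached a normalized count of 1, median-ratio (RLE) factors were computed, and edgeR (version 4.0.16, R 4.3.3) fitted organ and age by quasi-likelihood, with Benjamini-Hochberg adjustment over all genes tested at 0.05. A fit with 1 mean per organ and age gave the step in each organ and the test of its difference between organs. The authors tested a trend over all ages, so the test of this single step was not theirs. Without the E11.5 larynx the E13.5 larynx libraries carry no information on age, and the step rests on the 8 esophagus and trachea libraries. Replicate numbers did not pair samples of different ages, while within E13.5 the 3 organs varied together by number. Named genes were the 10 largest protein-coding rises and falls with a mean of at least 50 and no overlap between the ages, the 5 of highest count in each direction, the 3 largest in each direction per organ, the 6 of lowest p between organs, and from each list the strongest, the most abundant and those whose role a sentence is about. The members and the 60 lists were chosen with earlier results of these data known. Of the genes in the lists, Atp5a1, Atp5b, Atp5g1 and Rn7sk were not matched by symbol. Total counts per library ran from 3286391 to 24163138. The fits were tested on simulated data. Alternatives were TMM factors, other filters on low counts, DESeq2 (version 1.42.0), voom with quality weights in limma (version 3.58.1), a replicate block, protein-coding genes only, averaged organ steps, all 36 embryonic libraries, and leaving libraries out. A few genes that the naming rule selects are not reported here. The other 28 libraries were used in no comparison, other than the embryonic ones in the fit with all 36.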

Additional observations from a re-analysis of the deposited data

Results flagged for a closer look

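The highest or lowest of the 6 libraries of an age stood far from the other 5 in 17 of 134 groups of values tested, by Dixon's criterion. That criterion is met by chance in about 1 of 20 groups only for independent normal values. The values here were untransformed counts and shares, and some groups measured the same genes. The 17 of 134 can therefore not be read against that rate. The part of the flagged libraries in the results was not tested. Of the E11.5 libraries, larynx replicate 2 was highest in olfactory receptor counts (0.403% of the library, nearest other 0.0681%), in olfactory receptor genes detected (1206, nearest 149), in all genes detected (34550, nearest 23384) and in the summed normalized counts of the olfactory receptor list (73373, nearest 9826) and the airway secretory list (282, nearest 60.3), and lowest in the hedgehog list (11699, nearest 15215). E11.5 larynx replicate 1 was lowest in the lung list (938, nearest 1298). E11.5 trachea replicate 1 was highest in heart muscle genes (52590, nearest 6087), and E11.5 trachea replicate 2 in embryonic globins (110682, nearest 53529). E11.5 esophagus replicate 1 was highest in cartilage transcription factors (4196, nearest 2232), cartilage matrix genes (28586, nearest 11376) and posterior Hox genes (3327, nearest 682).

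Of the E13.5 libraries, esophagus replicate 2 was highest in cartilage matrix genes (14480, nearest 5266), sex-linked genes (6074, nearest 3340) and suprabasal epithelium genes (561, nearest 220). E13.5 larynx replicate 2 was highest in glycolysis and hypoxia genes (58776, nearest 41576) and lowest in mitosis genes (26156, nearest 33078). The step of Gata6 differed between the organs in edgeR's test (adjusted p = 0.0475): it was higher at E13.5 in both larynx libraries than in either at E11.5, and lay close to its E11.5 level in the trachea.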

How the results depend on the processing

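The count of genes that differed with age over the organs stayed within 1.5 times the 8006 given above in the settings that follow. It was 7705 with TMM factors, 8516 with no filter, 8265 with a filter of 10 normalized counts, 9603 with DESeq2 and 8293 with voom. It was 6177 with protein-coding genes, 7926 with averaged organ steps and 7188 with all 36 libraries. With each single library left out it was 5628 to 8084, of which 2767 to 3497 were higher and 2861 to 4587 lower. It fell to 4280 (1998 higher, 2282 lower) without both E11.5 larynx libraries, and to 3335 (1624 higher, 1711 lower) without those and esophagus E11.5 library 1, and without both E11.5 trachea libraries 2786 were lower, the last 2 choices having been made after seeing the data. Rises were 44% of the calls and 50.1% with TMM factors. Counts per organ were less steady. The esophagus gave 636, against 3382 with no filter on low counts, 2929 with DESeq2, 1014 with protein-coding genes, 182 with all 36 libraries, 993 without both E11.5 larynx libraries, 148 without those and esophagus E11.5 library 1, 184 without both E11.5 trachea libraries, and 0 to 2349 with single libraries left out. The larynx gave 3702, against 5595 with no filter, 5602 with DESeq2 and 657 to 4601 with single libraries left out. The trachea gave 0, against 1617 with no filter, 1208 with DESeq2, 34 with all 36 libraries, 7 without both E11.5 larynx libraries, 737 without those and esophagus E11.5 library 1, and 0 to 215 with single libraries left out. The difference between organs gave 1 gene, against 0 with TMM factors, with a filter of 10 normalized counts, with protein-coding genes and without both E11.5 larynx libraries, 2 without those and esophagus E11.5 library 1, 1693 with no filter, 249 with DESeq2, and 0 to 216 with single libraries left out. Same-numbered deviations from the group means correlated from -0.47 to 0.34 over 15 pairs of groups, 5 of them over 0.1, from -0.18 to -0.06 between the ages of an organ, from -0.43 to 0.28 within E11.5 and from 0.28 to 0.34 within E13.5, so the numbers do not pair the ages and go together at E13.5. With the replicate block 3278 genes were higher and 3845 lower over the organs, 385 passed in the esophagus and 0 differed between organs. With a replicate block at E13.5 alone, chosen after seeing the data, 3342 were higher and 4287 lower, 778 passed in the esophagus, 3624 in the larynx and 2 in the trachea, and 4 differed between organs. Both blocks take variation shared by number out of the residual without adding it to the error of the age step. They therefore do not show how far it would widen that error. Of the 286 named genes that passed, 191 passed whichever single library was left out, 276 passed with TMM factors, 278 with DESeq2, 255 with the block and 175 without both E11.5 larynx libraries. Of these genes only Lhx4 (log2 fold change -5.36) turned sign, to 0.24 without both E11.5 larynx libraries and esophagus E11.5 library 1. Fabp7, which did not pass with 12 libraries (-1.07), had 1.67 in that fit. The cause of these changes was not tested. Depth limits the E11.5 larynx most, whose replicate 1 held 3286391 counts.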

Other observations

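Several genes with large steps in single organs belonged to none of the groups above. Dlx6, a distal-less homeobox gene of pharyngeal arch mesenchyme, stood at 10.2 and 113 in the esophagus, 147 and 84.6 in the larynx and 1.40 and 0.778 in the trachea at E11.5, and at most at 1.44 in any E13.5 library. It was among the largest falls in the esophagus (adjusted p = 0.0395), the E11.5 trachea was already as low as E13.5 tissue, and over the organs its log2 fold change was -6.21 (adjusted p = 0.00166, and 0.0301 without the E11.5 larynx). Onecut2, a homeobox gene of neural and endodermal tissue, stood at 657 and 857 in the esophagus, 33.6 and 976 in the larynx and 84.1 and 61.4 in the trachea at E11.5 and at 22.5 to 38.5 at E13.5 (adjusted p = 0.0415 in the esophagus). Trank1 stood at 97.2 and 240.1 in the E11.5 esophagus and at 1.54 and 6.43 in the E13.5 esophagus (adjusted p = 0.0278). The large laryngeal falls of Vmn2r31 and Vmn1r183 rested on E11.5 larynx replicate 2, at 204 and 100.3 against 8.41 and 4.21 in replicate 1, and both were at 0 in the E13.5 larynx.

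Genes with the next lowest p over the 3 organs after Gata6 differed in the place of the larynx. Smtnl2 stood at 249 and 267 in the esophagus, 214 and 157 in the larynx and 1261 and 1027 in the trachea at E11.5 and at 717 and 1149.6 in the esophagus, 2078 and 2970.3 in the larynx and 1223 and 1793 in the trachea at E13.5. Hif3a, a hypoxia-inducible factor subunit, stood at 663 and 687 in the esophagus, 357 and 359 in the larynx and 837 and 713 in the trachea at E11.5 and at 530.1 and 620.2 in the esophagus, 831 and 942 in the larynx and 634 and 617 in the trachea at E13.5, so the larynx was the lowest organ at E11.5 and the highest at E13.5. Lix1 stood at 379 and 523 in the esophagus, 660.3 and 607 in the larynx and 51.9 and 80.9 in the trachea at E11.5 and at 199 and 246 in the esophagus, 138 and 114 in the larynx and 102 and 109.8 in the trachea at E13.5, with the larynx highest at E11.5.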
